A study of Mus musculus with 15 samples.

Results

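The translation initiation factors of adult neural stem cells were described across cultures in which Trrap, a cofactor of histone acetyltransferases, had or had not been deleted. The members were chosen by symbol: all protein-coding genes beginning with Eif, with the Y-linked Eif2s3y left out, plus Bzw1 and Bzw2, which encode mimics of eIF5. The rule found 56 members among the 53801 genes of the count table, 54 of them Eif genes. The set was proposed with levels in these libraries known, and Eif4a1, Eif4a2, Eif4a3, Bzw1 and Bzw2 were singled out in that proposal. Their values are therefore a description given without a p-value, and the counts of members called are printed beside those over all genes and nothing is read from them. In all, 55 members had at least 1 count and 54 passed the filter on low counts in each comparison. The members that did not were Eif4e1b, with 0 counts in every library, and Eif4ebp3.

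The cells were isolated from the subventricular zone of mice aged 2 months on a mixed C57BL6/J-129sv background and were grown in suspension with EGF and bFGF. All cultures carried the Rosa26-CreERT2 transgene, a Cre recombinase expressed from a ubiquitous locus and activated by 4-hydroxytamoxifen (4-OHT). Cultures with 1 floxed and 1 wild-type Trrap allele (Fl/+) of mice 19, 24, 26, 35 and 36 were sequenced untreated and after 4-OHT, and cultures with both alleles floxed (Fl/Fl) of mice 27, 28, 29, 37 and 39 were sequenced after 4-OHT. The treatment is labelled as 5 days, whereas the methods describe a shorter exposure followed by fresh medium. Each group thus held 5 libraries, the Fl/+ 4-OHT controls held 1 allele that 4-OHT can delete, and Fl/Fl cultures without 4-OHT were not analysed here. Values by library are given in this order of mouse numbers. RNA-seq gave 25720034 to 32187097 counts per library. Levels are counts per 1000000 of the library (CPM), scaled with TMM factors, and a gene was called where its Benjamini-Hochberg adjusted p in edgeR's quasi-likelihood test was under 0.05 over all genes tested.

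Trrap itself stood at 138, 204, 171, 165 and 142 CPM in the Fl/+ 4-OHT libraries and at 92.9, 115, 142, 89.2 and 82.8 CPM in the Fl/Fl 4-OHT libraries. Its log2 fold change was -0.64 ± 0.16 (SE, adjusted p = 0.0115), and the library of Fl/Fl mouse 29 lay within the Fl/+ range. Without Fl/+ mice 19, 24 and 26 the log2 fold change was -0.55 (adjusted p = 0.0937). Counts were summed over the whole gene, so reads outside the floxed segment were included and the level does not measure the share of deleted cells. Sex-linked genes went against the label in 1 library and were mixed or low in others. The library of Fl/Fl mouse 39, labelled female, held Xist at 0.313 CPM and Eif2s3y at 61.2 CPM. In the library of Fl/Fl mouse 29, labelled male and with Xist at 0.36 CPM, Eif2s3y was 39.5 CPM against 61.2 to 97.8 CPM in the other Fl/Fl libraries that expressed it. The Fl/+ 4-OHT library of mouse 36, labelled male, held Xist at 74.7 CPM beside Eif2s3y at 67.5 CPM, and the untreated library of the same mouse held Xist at 5.89 CPM. Whether cultures had been mixed or exchanged was not tested.

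All 10 neural stem cell markers examined averaged at least 1 CPM, with summed levels of 8219 to 11539 CPM in untreated Fl/+, 8778 to 10979 CPM in Fl/+ 4-OHT and 6804 to 10885 CPM in Fl/Fl 4-OHT libraries. Astrocyte markers (7 of 7) summed to 5556 to 7347, 5428 to 7000 and 4910 to 8850 CPM in the same order of groups. The neuron markers (7 of 8 at 1 CPM or more, Stmn2 under it) summed to 946 to 1243, 1023 to 1333 and 735 to 901 CPM, and the oligodendrocyte markers (7 of 8, Mog under it) to 217 to 726, 572 to 1147 and 702 to 2881 CPM. None of the 6 microglial markers and 1 of the 5 endothelial markers reached 1 CPM, with sums of at most 2.01 and 8.53 CPM. The part of these shifts in the results on the members was not tested, and in cultures sequenced whole, fewer cells of a type and less RNA per cell cannot be told apart.

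Translation of most mRNAs begins when the cap-binding complex eIF4F, made of the cap-binding protein eIF4E, the scaffold eIF4G and the RNA helicase eIF4A, recruits a small ribosomal subunit that carries eIF1, eIF1A, eIF3, eIF5 and the ternary complex of eIF2, GTP and initiator tRNA. The subunit scans to a start codon, eIF5 promotes GTP hydrolysis by eIF2, and eIF2B reloads eIF2 with GTP for another round. Kinases that phosphorylate the alpha subunit of eIF2, and the 4E-BP proteins that sequester eIF4E, are known brakes on this cycle. In neural stem cells, control of translation is known to accompany the passage between quiescence, division and differentiation.

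In untreated Fl/+ cultures the members spanned a wide range of levels per kilobase of exon. Eif5a, which encodes a factor best known for easing peptide bond formation at difficult residues, stood at 182 ± 34.6 CPM per kb (mean ± SD, n = 5). Eif3h, a subunit of the eIF3 scaffold, was at 182 ± 32.5 and Eif4g2, a relative of eIF4G that does not bind eIF4E, at 171 ± 33.5 CPM per kb. The ranges of these genes overlapped, so their order was not resolved. At the other end Eif3j1 averaged 1.44 ± 0.986 CPM per kb, and Eif4e3, a minor cap-binding relative of eIF4E, 0.135 ± 0.0849. The count of 0 for Eif4e1b, known as an oocyte form of eIF4E, allows a level of up to 0.117 CPM in the shallowest library when 3 counts are taken as the limit, which covers counting error only. Eif4ebp3 reached at most 0.243 CPM in a library.

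The eIF4A paralogs showed unlike levels across the groups. Eif4a1 and Eif4a2 encode the closely related helicases of eIF4F, and Eif4a3 encodes a helicase of the exon junction complex, which is laid on spliced mRNA. Eif4a1 was at 210, 171, 168, 160 and 172 CPM in untreated Fl/+ libraries, at 160, 169, 164, 172 and 167 CPM in Fl/+ 4-OHT libraries, and at 96.9, 88.2, 80.9, 83.8 and 91.4 CPM in Fl/Fl 4-OHT libraries. The Fl/Fl range lay below both Fl/+ ranges without overlap, and the log2 fold change after deletion was -0.90 ± 0.0643 (SE, n = 5 against 5), a level 46.4% lower. Eif4a2 was at 156, 156, 149, 185 and 173 CPM untreated, at 208, 167, 179, 179 and 200 CPM in Fl/+ 4-OHT, and at 202, 202, 221, 207 and 179 CPM in Fl/Fl 4-OHT libraries. For this gene the ranges of the 4-OHT groups overlapped, and the log2 fold change was 0.13 ± 0.0808 after deletion. Eif4a3 was at 175, 146, 156, 136 and 150 CPM untreated, at 116, 117, 116, 129 and 127 CPM in Fl/+ 4-OHT, and at 127, 124, 110, 111 and 135 CPM in Fl/Fl 4-OHT libraries. Its lower level was thus shared by both 4-OHT groups, with log2 fold changes of -0.33 ± 0.0804 for 4-OHT and 0.02 ± 0.0728 for deletion.

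The eIF5 mimics showed a similar split between paralogs. Bzw1 and Bzw2 encode proteins known to compete with eIF5 and so to tighten start codon selection. Bzw2 was at 163, 148, 130, 131 and 146 CPM untreated, at 165, 150, 136, 141 and 153 CPM in Fl/+ 4-OHT, and at 59.9, 72.1, 64, 58.8 and 67 CPM in Fl/Fl 4-OHT libraries. Every Fl/Fl library lay below every Fl/+ library, with a log2 fold change after deletion of -1.20 ± 0.0771, a level 56.4% lower. Bzw1 was at 416, 302, 281, 375 and 427 CPM in Fl/+ 4-OHT and at 297, 328, 279, 309 and 343 CPM in Fl/Fl 4-OHT libraries, ranges that overlapped, with a log2 fold change of -0.20 ± 0.119.

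**Figure D1:**
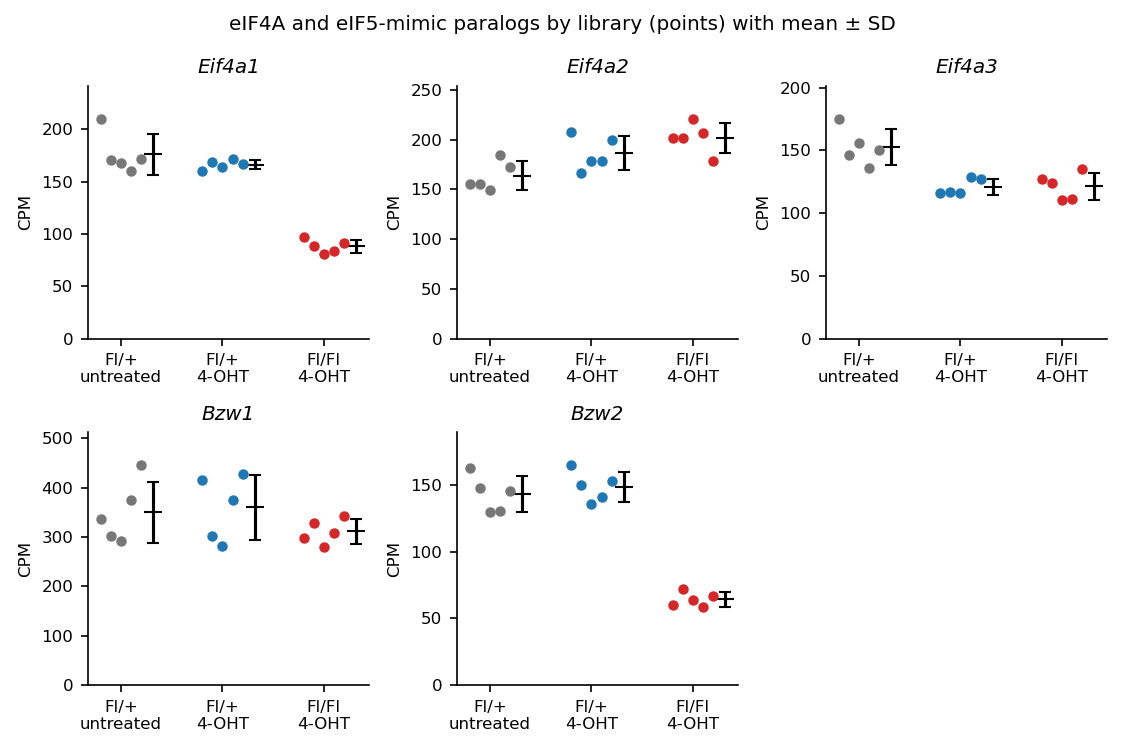
Levels in CPM (y axis, from 0) of Eif4a1, Eif4a2, Eif4a3, Bzw1 and Bzw2 in each library (points) by group, with the mean and SD of 5 libraries beside them. Eif4a1 (80.9 to 96.9 CPM) and Bzw2 (58.8 to 72.1 CPM) in Fl/Fl 4-OHT libraries lie below all Fl/+ libraries, whereas Eif4a2 and Bzw1 overlap between the 4-OHT groups.

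As shares of the summed level per kb of the 3 eIF4A paralogs, Eif4a1 made up 28.3% ± 1.25 in untreated Fl/+, 29.5% ± 1.16 in Fl/+ 4-OHT and 17.6% ± 0.68 in Fl/Fl 4-OHT libraries (SD, n = 5). Eif4a2 made up 21.5% ± 2.79, 26.8% ± 2.04 and 32.9% ± 3.34 in the same order, and Eif4a3 50.2% ± 1.96, 43.7% ± 1.28 and 49.5% ± 2.91. The ratio of Eif4a1 to Eif4a2 per kb was 1.11 ± 0.119 in Fl/+ 4-OHT and 0.541 ± 0.0705 in Fl/Fl 4-OHT libraries. The sum of both eIF4F helicases was 73.4 ± 2.57 against 58.3 ± 2.26 CPM per kb, so the 2 genes together also stood lower in Fl/Fl cultures. Bzw2 made up 23.9% ± 2.7 of both mimics in Fl/+ 4-OHT and 13.4% ± 0.937 in Fl/Fl 4-OHT libraries. Levels between genes carry a limit here: of the 51-base windows of the longest coding transcript, 65.1% for Eif4a1, 12.3% for Eif4a2 and 23.6% for Eif4a3 also occurred in a transcript of another annotated gene, 5.99% for Bzw1 and none for Bzw2, and only uniquely mapped reads had been counted. Levels per kb also depend on the exon length, taken over all annotated exons of a gene. It was 4334 bases for Eif4a1, 5338 for Eif4a2 and 2122 for Eif4a3. As shares of counts, without this length, Eif4a1, Eif4a2 and Eif4a3 made up 35.7%, 33.3% and 31% in untreated Fl/+ libraries. The order of the eIF4A paralogs in level was therefore not resolved.

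The promoters of these 5 genes are shown because the paralogs within each family differed after deletion. RefSeq windows of 300 bases around an annotated start (build GRCm38.p6) are written 5′ to 3′ on the strand of the gene, with capitals marking the GC box GGGCGG bound by Sp factors and the E-box CACGTG bound by Myc and Max, on either strand, motifs that do not overlap in these windows. The window of Bzw2 lies inside the gene as annotated for the counts, whose 5′ end is at 36158080, so it rests on a different start.
Eif4a1, chr11:69672374-69672673, minus strand: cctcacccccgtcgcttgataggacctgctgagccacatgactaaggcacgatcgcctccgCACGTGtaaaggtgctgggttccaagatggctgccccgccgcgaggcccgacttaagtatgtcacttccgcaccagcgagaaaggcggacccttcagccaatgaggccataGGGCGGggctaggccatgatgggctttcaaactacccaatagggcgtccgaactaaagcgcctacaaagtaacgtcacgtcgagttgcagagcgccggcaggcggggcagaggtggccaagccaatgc
Eif4a2, chr16:23107218-23107517, plus strand: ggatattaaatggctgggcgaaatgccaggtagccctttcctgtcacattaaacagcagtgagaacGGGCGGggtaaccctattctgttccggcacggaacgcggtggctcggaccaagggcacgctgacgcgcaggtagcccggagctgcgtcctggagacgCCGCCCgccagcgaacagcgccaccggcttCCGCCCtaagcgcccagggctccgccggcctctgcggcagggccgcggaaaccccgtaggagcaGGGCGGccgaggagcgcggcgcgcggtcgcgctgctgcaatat
Eif4a3, chr11:119299994-119300293, minus strand: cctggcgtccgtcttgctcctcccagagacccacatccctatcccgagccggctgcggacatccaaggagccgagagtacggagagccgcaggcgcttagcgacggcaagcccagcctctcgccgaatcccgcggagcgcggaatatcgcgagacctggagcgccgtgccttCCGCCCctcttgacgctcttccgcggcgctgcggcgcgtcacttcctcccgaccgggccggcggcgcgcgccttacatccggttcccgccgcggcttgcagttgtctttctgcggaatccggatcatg
Bzw1, chr1:58392648-58392947, plus strand: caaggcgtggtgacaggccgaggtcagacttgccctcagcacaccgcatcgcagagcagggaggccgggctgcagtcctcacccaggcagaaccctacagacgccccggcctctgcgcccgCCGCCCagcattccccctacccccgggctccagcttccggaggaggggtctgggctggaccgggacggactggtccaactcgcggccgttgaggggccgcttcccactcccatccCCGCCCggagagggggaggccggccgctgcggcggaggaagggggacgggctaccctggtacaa
Bzw2, chr12:36156776-36157075, minus strand: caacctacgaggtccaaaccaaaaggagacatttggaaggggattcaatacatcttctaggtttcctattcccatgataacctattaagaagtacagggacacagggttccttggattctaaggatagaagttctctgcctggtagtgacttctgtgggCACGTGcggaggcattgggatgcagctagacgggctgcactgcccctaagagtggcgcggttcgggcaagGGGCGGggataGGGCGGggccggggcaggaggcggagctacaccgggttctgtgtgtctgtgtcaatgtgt

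The windows of Eif4a1 and Bzw2 held 1 E-box each, and those of Eif4a2, Eif4a3 and Bzw1 held none. GC boxes numbered 1 in Eif4a1, 4 in Eif4a2, 1 in Eif4a3, 2 in Bzw1 and 2 in Bzw2. A window was given for 44 of the 56 members, of which 34 held a GC box (77.3%) and 11 an E-box (25%), counting any window of a gene. Over all 27025 genes with a window, not limited to genes expressed in these cultures, the shares were 38.2% and 8.09%, and over all 32851 windows 35.7% and 7.15%. Among the members called lower after deletion, 14 of 16 windowed genes held a GC box and 7 an E-box, namely Bzw2, Eif1b, Eif3a, Eif4a1, Eif4g1, Eif4h and Eif5a. Among those not called, 19 of 26 held a GC box and 4 an E-box. These are matches of letters, given without a test and without the shares among all genes called lower.

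To ask what changed with loss of the second Trrap allele, Fl/Fl 4-OHT was compared with Fl/+ 4-OHT. The Fl/Fl and Fl/+ cultures came from different mice, so loss of the allele and differences between mice cannot be told apart here. Besides Eif4a1 and Bzw2, described above, Eif4ebp1 and Eif4ebp2, the helicase cofactor gene Eif4b, the kinase gene Eif2ak3, Eif5a and Eif5 had lower levels, while the kinase gene Eif2ak2 and the unconventional initiator Eif2d had higher ones. Of the 54 members tested, 17 were called lower and 2 higher. Over all 15036 genes tested, 15.0% were called lower and 16.8% higher, 31.7% in all, beside 35.2% of the members. The median log2 fold change of the members was -0.12, with 42 of 54 below 0, and that of all genes 0.02.

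**Figure D2:**
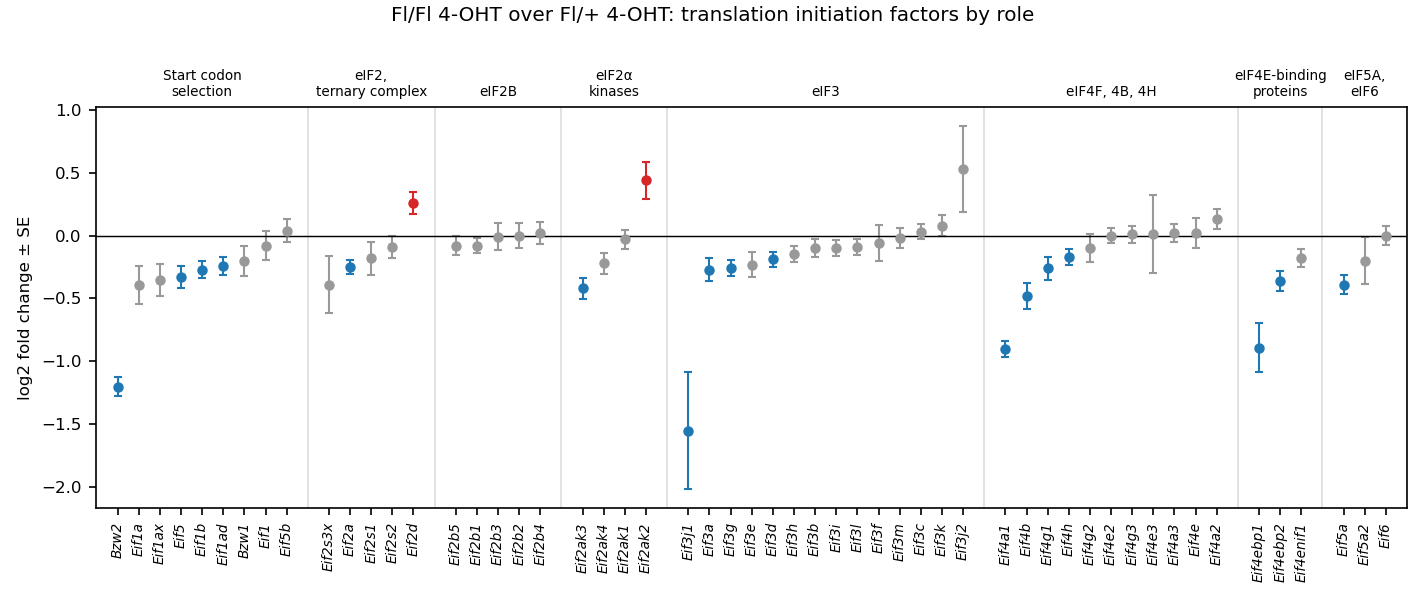
Log2 fold change ± SE of Fl/Fl 4-OHT over Fl/+ 4-OHT (y axis) for the 54 tested members, ordered within each role. Blue points are the 17 members called lower, red points the 2 called higher and grey points those not called. Eif3j1, Bzw2, Eif4a1 and Eif4ebp1 lie lowest, and eIF2B subunits lie near 0.

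Among the factors of scanning and start codon selection, 4 of 9 were called lower and none higher, beside 15.0% and 16.8% of all genes, and the median of their log2 fold changes was -0.27. Besides Bzw2, these were Eif5, which encodes the activator of GTP hydrolysis by eIF2, Eif1b, a paralog of the scanning factor gene Eif1, and Eif1ad, which encodes a protein with an eIF1A-like domain. Eif5 was at 361 ± 44.3 CPM in Fl/+ 4-OHT and 283 ± 19.1 CPM in Fl/Fl 4-OHT libraries (log2 fold change -0.33 ± 0.0901, adjusted p = 0.0164). Eif1b was at 108 ± 9.23 against 88.8 ± 2.41 CPM (-0.27 ± 0.0679, adjusted p = 0.0122). Eif1ad was at 62.9 ± 5.75 against 52.5 ± 2.64 CPM (-0.24 ± 0.0713, adjusted p = 0.023). The groups did not overlap for any of these 3 genes. Eif1, Eif1a, Eif1ax, Eif5b and Bzw1 were not called, and their log2 fold changes ran from -0.39 to 0.04.

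The core subunits of eIF2 were not called. Eif2s1, Eif2s2 and Eif2s3x, which encode its alpha, beta and gamma subunits, had log2 fold changes of -0.18 ± 0.132, -0.09 ± 0.0861 and -0.39 ± 0.226. Eif2a, whose product can deliver initiator tRNA without the eIF2 complex, was lower at 72.3 ± 2.54 against 87.1 ± 3.97 CPM (-0.25 ± 0.0557, adjusted p = 0.0059). Eif2d, which encodes another factor that can place tRNA on the ribosome outside the eIF2 route, was at 55.6, 59.2, 70.6, 57.3 and 56.5 CPM in Fl/+ 4-OHT and at 77.3, 73.2, 74.2, 65.5 and 64.7 CPM in Fl/Fl 4-OHT libraries. The Fl/+ 4-OHT culture of mouse 26 lay within the Fl/Fl range and the other 4 lay below it, with a log2 fold change of 0.26 ± 0.087 (adjusted p = 0.0399). None of the 5 eIF2B subunit genes was called, beside 31.7% of all genes, with log2 fold changes between -0.08 and 0.02 and SEs between 0.0585 and 0.108.

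Of the 4 genes for eIF2α kinases, 1 fell and 1 rose, beside 15.0% and 16.8% of all genes. Eif2ak3, which encodes PERK, the kinase that senses unfolded protein in the endoplasmic reticulum, was at 102, 84.6, 103, 97.5 and 96 CPM in Fl/+ 4-OHT and at 68.9, 70.4, 63.1, 83.3 and 73.4 CPM in Fl/Fl 4-OHT libraries. These ranges did not overlap, and the log2 fold change was -0.42 ± 0.0815 (adjusted p = 0.00344). Untreated Fl/+ libraries, at 60.6 to 74 CPM, overlapped with the Fl/Fl range. Eif2ak2, which encodes PKR, a kinase activated by double-stranded RNA and induced by interferon, was at 24.1, 22.6, 20.9, 32.2 and 34.8 CPM in Fl/+ 4-OHT and at 40.9, 36.9, 29.8, 36.4 and 37.1 CPM in Fl/Fl 4-OHT libraries. The cultures of Fl/+ mice 35 and 36 lay within the Fl/Fl range, and the log2 fold change was 0.44 ± 0.146 (adjusted p = 0.0377). Without Fl/+ mice 19, 24 and 26 the log2 fold change was 0.12 (adjusted p = 0.515). The haem-regulated kinase gene Eif2ak1 and the amino acid sensor Eif2ak4 (GCN2) had log2 fold changes of -0.03 ± 0.0733 and -0.22 ± 0.082 and were not called.

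In eIF3, the large scaffold that joins the small subunit to eIF4G, 4 of 14 genes were called lower and none higher, again beside 15.0% and 16.8% of all genes. Eif3a, for the largest subunit, was at 479 ± 55.4 CPM in Fl/+ 4-OHT and 394 ± 26.7 CPM in Fl/Fl 4-OHT libraries (-0.27 ± 0.0881, adjusted p = 0.039). Eif3g was at 121 ± 5.28 against 101 ± 5.98 CPM (-0.26 ± 0.0633, adjusted p = 0.0109), and Eif3d, whose product can itself bind the cap of some mRNAs, at 230 ± 3.77 against 200 ± 14.9 CPM (-0.19 ± 0.0628, adjusted p = 0.0411). The fourth call, Eif3j1, rested on a difference between Fl/+ mice and is described with its paralog further on. The 10 subunit genes not called had log2 fold changes from -0.23 to 0.53, the highest being Eif3j2 at 0.53 ± 0.345, and a median of -0.08.

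In the eIF4F group 4 of 11 tested genes were called lower, beside 15.0% of all genes. Eif4b, which encodes a protein that stimulates the eIF4A helicase, was at 610 ± 72.9 CPM in Fl/+ 4-OHT and 432 ± 39.2 CPM in Fl/Fl 4-OHT libraries (-0.48 ± 0.101, adjusted p = 0.00466). Eif4h, for a related helicase cofactor, was at 386 ± 5.98 against 339 ± 17.1 CPM (-0.17 ± 0.0602, adjusted p = 0.0468). Eif4g1, for the main scaffold, was at 778 ± 61.3 against 645 ± 67.5 CPM (-0.26 ± 0.0895, adjusted p = 0.0483). The calls of Eif4h and Eif4g1 were lost in most of the other settings. The cap-binding gene Eif4e was at 81.3 ± 14.8 against 81.7 ± 7.83 CPM (0.02 ± 0.121). Eif4e2, which encodes a cap-binding repressor, Eif4g2 and Eif4g3 were not called, at -0.00 ± 0.0595, -0.10 ± 0.109 and 0.01 ± 0.0693.

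Of the 3 tested genes for eIF4E-binding proteins, 2 were called lower, beside the same 15.0%. Eif4ebp1 was at 39, 75.6, 46.3, 44.9 and 49.4 CPM in Fl/+ 4-OHT and at 21.7, 27.2, 26.6, 37.7 and 23.4 CPM in Fl/Fl 4-OHT libraries. The ranges did not overlap, though the lowest Fl/+ library lay just above the highest Fl/Fl library, and the log2 fold change was -0.89 ± 0.192 (adjusted p = 0.00546). Eif4ebp2 was at 289 ± 22.6 against 223 ± 13.9 CPM, again without overlap (-0.36 ± 0.0776, adjusted p = 0.0058). Eif4enif1, whose product carries eIF4E into the nucleus, was not called at -0.18 ± 0.0699. The summed level per kb of Eif4ebp1 and Eif4ebp2 was 5.63 ± 1.59 times that of Eif4e in Fl/+ 4-OHT and 3.78 ± 0.422 times in Fl/Fl 4-OHT libraries, with overlapping ranges of 4.14 to 7.47 and 3.28 to 4.28, and 4.54 ± 1.17 times in untreated Fl/+ libraries. In the remaining role Eif5a fell, from 464 ± 14.6 to 350 ± 31.3 CPM (-0.39 ± 0.0727, adjusted p = 0.0026), while Eif5a2 and Eif6, for a factor that keeps the ribosomal subunits apart, were not called.

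How far these calls held varied. Eif2ak3 and Eif5a were called under each of 17 other settings, 10 of which left out 1 library, and Eif1b, Eif2a, Eif3g, Eif4b, Eif4ebp1, Eif4ebp2 and Eif5 under 16 of them, Eif1ad under 14 and Eif3j1 under 11, but Eif4g1 under 4, Eif4h under 5, Eif2d under 6, Eif3a and Eif3d under 7 each and Eif2ak2 under 8. Without the Fl/Fl libraries of mice 29 and 39 and the Fl/+ 4-OHT library of mouse 36, 6 members were counted lower, Eif4b, Eif5a, Eif2ak3 and Eif4ebp2 besides Bzw2 and Eif4a1, and 1 higher (Eif2ak2). Over all genes that setting called 1244 lower and 1140 higher of 15342, against 2253 and 2520 of 15036 with all 10 libraries. Without Fl/+ mice 19, 24 and 26, 16 members were counted lower and 1 higher, beside 1467 and 1439 of 15805 genes. They were not all the same genes: the calls of Eif4b (-0.35, adjusted p = 0.0553), Eif4ebp2 (-0.24, adjusted p = 0.084), Eif4g1 (-0.36, adjusted p = 0.0689), Eif3d (-0.21, adjusted p = 0.128), Eif2d (0.33, adjusted p = 0.0523), Eif4h, Eif3j1 and Eif2ak2 were lost. That setting kept only mice 35 and 36 on the Fl/+ side, and fewer libraries alone can cost a call. For Eif4g1, Eif3d and Eif2d the fold change was no smaller than with all 10 libraries (-0.26, -0.19 and 0.26). Both settings were chosen after seeing the data.

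**Figure D3:**
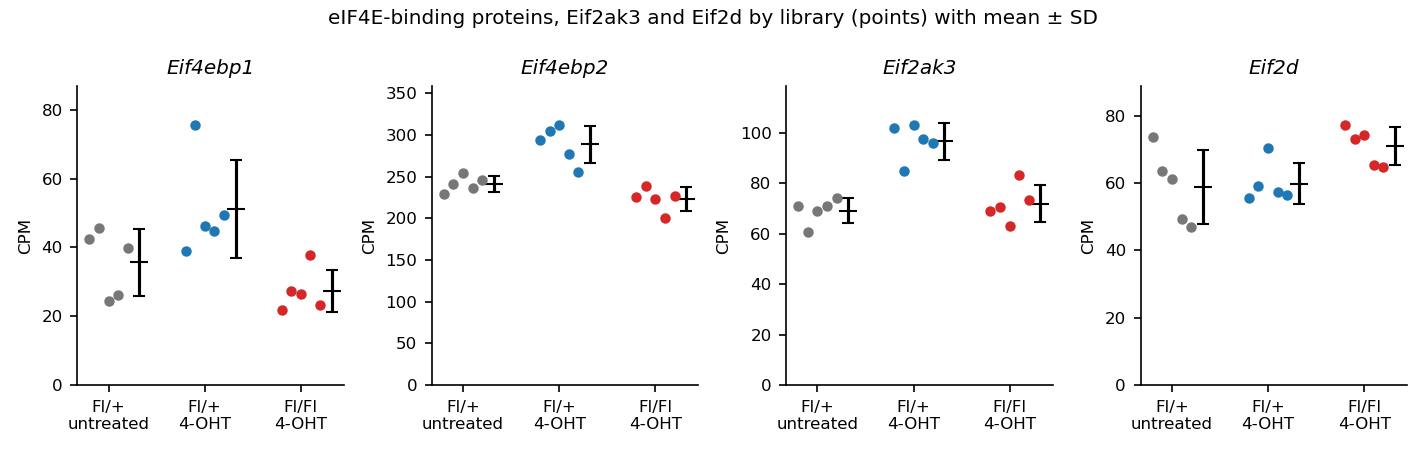
Levels in CPM (y axis, from 0) of Eif4ebp1, Eif4ebp2, Eif2ak3 and Eif2d in each library (points) by group, with the mean and SD of 5 libraries. Eif4ebp2 and Eif2ak3 stand higher in Fl/+ 4-OHT than in both other groups, and Eif2d stands higher in Fl/Fl 4-OHT than in 4 of the 5 Fl/+ 4-OHT libraries.

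The effect of 4-OHT in cells that keep a Trrap allele was read from the Fl/+ cultures, sequenced with and without it from the same 5 mice. The agent and the loss of 1 allele cannot be told apart in this comparison. The stress kinase gene Eif2ak3 and the 4E-BP gene Eif4ebp2 rose, and Eif4a3 fell. In the unpaired test 2 of 54 members were called higher and 1 lower, against 7.34% and 6.45% of 14821 genes (13.8% in all). With the mouse as a block, the numbers were 6 higher and 4 lower, against 13.8% and 11.9% of genes (25.7% in all). The member median was 0.00 and that of all genes -0.01. Scaled by library size alone, 66.2% of all calls were higher, against 53.2% with TMM, and the members called were 3 higher and 0 lower.

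Eif2ak3 was at 71.1, 60.6, 68.8, 71 and 74 CPM untreated and at 102, 84.6, 103, 97.5 and 96 CPM under 4-OHT. It was higher in 5 of 5 mice, without overlap of the groups, with a log2 fold change of 0.49 ± 0.0812 (adjusted p = 0.00345). Eif4ebp2 was at 229, 241, 255, 237 and 246 CPM untreated and at 294, 305, 312, 277 and 256 CPM under 4-OHT, also higher in 5 of 5 mice (0.26 ± 0.0766, adjusted p = 0.0456). That call lay close to the threshold and held under 5 of 17 alternatives, among them the mouse block (adjusted p = 0.0371). Eif4a3, counted as the 1 called lower but only described here, was lower in 5 of 5 mice by the values given above. It dropped out of the count when the Fl/+ 4-OHT library of mouse 19, 24 or 26 was left out. Its log2 fold change ran from -0.38 to -0.28 when 1 library was left out and was -0.14 without both libraries of each of these mice.

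With the mouse block, 7 further members were called. The higher ones were Eif1a (0.35 ± 0.0988, adjusted p = 0.0338), Eif4ebp1 (0.53 ± 0.147, adjusted p = 0.0316), Eif4g3 (0.23 ± 0.07, adjusted p = 0.0443) and the eIF2B beta subunit gene Eif2b2 (0.26 ± 0.0839, adjusted p = 0.0487). The lower ones were Eif1 (-0.35 ± 0.108, adjusted p = 0.0464), Eif3h (-0.31 ± 0.0944, adjusted p = 0.0432) and Eif3k (-0.26 ± 0.0823, adjusted p = 0.0466). Eif1, Eif3h and Eif3k were lower in 5 of 5 mice, Eif1a and Eif4g3 higher in 5 of 5, and Eif4ebp1 and Eif2b2 higher in 4 of 5. Without the block the eIF2 subunit genes had log2 fold changes of 0.02 to 0.04 (SE 0.129 to 0.206), and the remaining members that were not called without it ran from -0.52 (Eif3j1, SE 0.653) to 0.97 (Eif4e3, SE 0.423), both poorly measured.

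**Figure D4:**
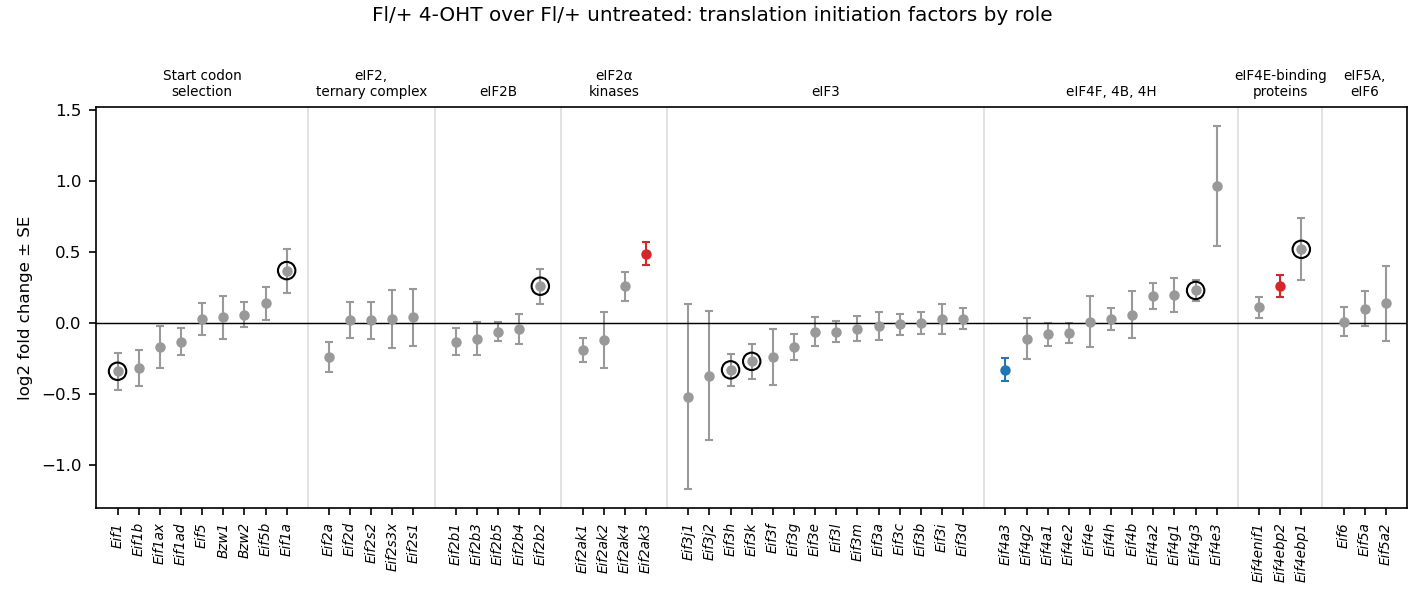
Log2 fold change ± SE of Fl/+ 4-OHT over untreated Fl/+ (y axis) for the 54 tested members by role, in the fit without the mouse block. Red points are the 2 called higher, the blue point is the 1 called lower, grey points were not called, and black rings mark the 7 members called only when the mouse was a block. Eif2ak3 and Eif4a3 have the smallest errors relative to their change.

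Fl/Fl 4-OHT against untreated Fl/+ combines loss of the second allele with the treatment, again in different mice, and shares its libraries with both comparisons above. Of 54 members 15 were called lower and 2 higher, against 15.1% and 15.7% of 15032 genes (30.7% in all). With scaling by library size alone the members numbered 11 lower and 4 higher, and 66.3% of all calls were higher against 51% with TMM. The eIF4F helicase gene Eif4a1 had a log2 fold change of -0.99 ± 0.09 and Bzw2 of -1.14 ± 0.0886. Of the 9 start codon factors 6 were called lower. Eif1b was at 135 ± 25.6 untreated against 88.8 ± 2.41 CPM (-0.59 ± 0.122, adjusted p = 0.00436), Eif1ax, for the scanning factor eIF1A, at 175 ± 22.7 against 120 ± 7.95 CPM (-0.53 ± 0.0944, adjusted p = 0.00204), and Eif1 at 151 ± 21.5 against 112 ± 11.9 CPM (-0.42 ± 0.113, adjusted p = 0.0159). Eif1ad (-0.38), Eif5 (-0.30) and Bzw2 made up the rest, and Eif5 was called under only 7 of 16 other settings.

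In the same comparison 5 of 14 eIF3 genes were called lower, beside 15.1% of all genes. They were Eif3j1 (-2.08 ± 0.524, adjusted p = 0.0119), Eif3h (-0.48 ± 0.118, adjusted p = 0.0109), Eif3g (-0.43 ± 0.0959, adjusted p = 0.00639), Eif3a (-0.30 ± 0.0815, adjusted p = 0.0181) and Eif3e (-0.30 ± 0.0693, adjusted p = 0.00811). Eif2a, at 103 ± 15.9 against 72.3 ± 2.54 CPM, fell by 0.49 on the log2 scale (SE 0.104, adjusted p = 0.00474), and Eif2ak1 by 0.22 (SE 0.071, adjusted p = 0.0325), although it was called under only 7 of 16 alternatives. Eif4g3 was called higher, at 227 ± 7.53 against 266 ± 11.9 CPM (0.24 ± 0.0649, adjusted p = 0.0164). Eif4a2, the other member counted higher, is only described here (0.32 ± 0.0848), as is Eif4a3, counted lower (-0.32 ± 0.0896). Eif2ak3, Eif4ebp1 and Eif4ebp2 were not called against untreated cultures, with log2 fold changes of 0.07 ± 0.0869, -0.37 ± 0.205 and -0.10 ± 0.071. Of the other genes called after deletion, Eif4b, Eif5a, Eif4g1, Eif4h, Eif3d, Eif2d and Eif2ak2 were likewise not called here. Several of the calls changed without Fl/+ mice 19, 24 and 26, a setting that kept only mice 35 and 36 on the Fl/+ side. With fewer libraries a call can be lost although the fold change hardly moves, as for Eif4g3. Without the libraries of mice 19, 24 and 26 the log2 fold changes were -0.26 for Eif1b (adjusted p = 0.0269) and -0.25 for Eif2a (adjusted p = 0.0437), and the calls were lost for Eif1 (-0.19, adjusted p = 0.223), Eif3h (-0.21, adjusted p = 0.102), Eif3g (-0.23, adjusted p = 0.077), Eif3j1 (-0.08, adjusted p = 0.84), Eif2ak1 (-0.15, adjusted p = 0.171) and Eif4g3 (0.20, adjusted p = 0.103). In that setting the log2 fold change was 0.19 for Eif4a2 and -0.23 for Eif4a3, and both dropped out of the counts.

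The levels of some members split by mouse. Eif3j1 and Eif3j2 encode closely related forms of the eIF3 subunit that helps bind the small ribosomal subunit. Eif3j1 was at 12.4, 12.3, 13, 2.5 and 1.69 CPM in untreated Fl/+, at 10.7, 7.09, 7.74, 1.56 and 2.01 CPM in Fl/+ 4-OHT, and at 2.14, 1.84, 2, 2.09 and 1.77 CPM in Fl/Fl 4-OHT libraries. The 6 libraries of Fl/+ mice 19, 24 and 26 thus stood at 7.09 to 13 CPM, and the 4 libraries of Fl/+ mice 35 and 36, at 1.56 to 2.5 CPM, spanned all Fl/Fl libraries (1.77 to 2.14 CPM). The log2 fold change after deletion of -1.55 ± 0.468 (adjusted p = 0.0267) became 0.15 (adjusted p = 0.686) without Fl/+ mice 19, 24 and 26. Eif3j2 ran the other way, at 3.04 to 5.96 CPM in mice 19, 24 and 26, 10.2 to 14.8 CPM in mice 35 and 36 and 8.82 to 11 CPM in Fl/Fl mice. Both summed to 12.8 ± 2.4 CPM in Fl/+ 4-OHT and 12 ± 0.929 CPM in Fl/Fl 4-OHT libraries. They share most of their sequence: 91.7% of the 51-base windows of Eif3j2 and 54.7% of those of Eif3j1 occurred in transcripts of other genes, each among those of the other, so the assignment of reads between them is uncertain.

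Eif2s3x, the X-linked gene for eIF2 gamma, which is known to escape X inactivation, followed the sex of the mice. It was at 14.9 to 20.4 CPM in the 9 libraries labelled male and at 25.4 to 31.2 CPM in 5 of the 6 labelled female, and at 14.1 CPM in the sixth, the Fl/Fl library of mouse 39 in which Xist was near 0. Untreated Fl/+ cultures also split by mouse for other members. Eif1b was at 144 to 158 CPM in mice 19, 24 and 26 and at 109 and 106 CPM in mice 35 and 36, Eif1 at 157 to 177 against 127 and 131 CPM, Eif2a at 105 to 122 against 83.6 and 90.2 CPM, Eif3h at 302 to 369 against 247 and 240 CPM, and Eif3g at 143 to 155 against 115 and 123 CPM. Eif2ak2 ran the other way, at 23.8, 21.6 and 27.9 CPM in mice 19, 24 and 26 and at 34.6 and 39 CPM in mice 35 and 36. Under 4-OHT the same mice overlapped for Eif1b (103, 104 and 124 against 104 and 105 CPM). They also overlapped there for Eif1, Eif2a, Eif3h and Eif3g, whose split was thus limited to untreated cultures. Eif2ak2 stayed apart under 4-OHT, at 24.1, 22.6 and 20.9 against 32.2 and 34.8 CPM.

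**Figure D5:**
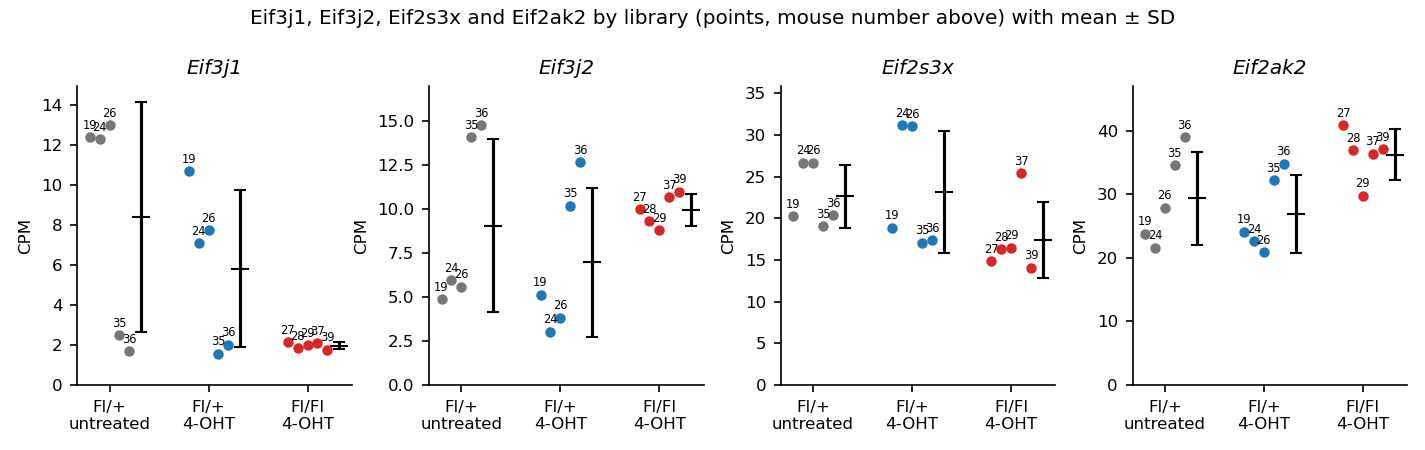
Levels in CPM (y axis, from 0) of Eif3j1, Eif3j2, Eif2s3x and Eif2ak2 in each library (points, labelled with the mouse number) by group, with the mean and SD of 5 libraries. Eif3j1 separates Fl/+ mice 19, 24 and 26 (7.09 to 13 CPM) from all other libraries (1.56 to 2.5 CPM), and Eif2s3x separates libraries labelled female from those labelled male except for mouse 39.

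Proportions in the other paralog families are given as shares of the summed level per kb. Eif5a made up 98.2% ± 0.489, 98.1% ± 0.485 and 97.9% ± 0.198 of the eIF5A level per kb in untreated Fl/+, Fl/+ 4-OHT and Fl/Fl 4-OHT libraries. Eif4e and Eif4e2 shared the cap-binding level almost evenly, with Eif4e at 49.5% ± 6.19, 50.8% ± 5.05 and 51.5% ± 1.57. Within the eIF4G family Eif4g1 made up 32.7% ± 1.13, 36.9% ± 1.55 and 34.2% ± 0.759. The share of Eif1a in both eIF1A genes was 18.1% ± 1.27 untreated and 24.2% ± 1.55 under 4-OHT in Fl/+ cultures, ranges that did not overlap, and was 23.7% ± 1.6 in Fl/Fl cultures. Among the eIF2α kinases Eif2ak3 made up 28.2% ± 1.72, 37.4% ± 1.45 and 30.2% ± 2.19, and Eif2ak2 14.1% ± 3.04, 12.2% ± 2.42 and 17.9% ± 1.46. Eif4ebp1 made up 27.6% ± 5.99, 31.4% ± 5.36 and 24.2% ± 5.06 of the 4E-BP level, with overlapping ranges. These shares were not tested.

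Genes of neighbouring steps of translation were counted from lists outside the family, to be set beside the 15.0% called lower and 16.8% called higher over all genes after deletion, and nothing is read from the counts. Of 25 other initiation genes and regulators, 6 were called lower and 2 higher after deletion (median -0.07 on the log2 scale). Ddx3x, for a helicase that aids scanning, fell from 349 ± 31.5 to 243 ± 8 CPM (-0.51 ± 0.0708, adjusted p = 0.000531), and Pabpc4, for a poly(A)-binding protein, had a log2 fold change of -0.37 ± 0.0914 (adjusted p = 0.0107). Paip2, for an inhibitor of poly(A)-binding protein, rose by 0.35 ± 0.0753 (adjusted p = 0.00518), as did Mknk1, for a kinase of eIF4E, by 0.35 ± 0.0654 (adjusted p = 0.00275). Of 15 elongation and termination factors 5 were called lower and none higher (median -0.16), among them Eef2k, for the inhibitory kinase of eEF2 (-0.55 ± 0.101, adjusted p = 0.00241), Eef1a1 (-0.53 ± 0.109, adjusted p = 0.00418) and Eef1g (-0.51 ± 0.068, adjusted p = 0.000451). Of the 9 mitochondrial translation factors 4 were called higher, Mtrf1, Mtif3, Gfm1 and Mrrf, at log2 fold changes of 0.45, 0.42, 0.33 and 0.31. The other 5 were not called, at -0.01 to 0.24, and the median of the list was 0.24.

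Atf4, the transcription factor whose mRNA is translated when eIF2α is phosphorylated, and its known targets gave 4 of 15 called lower and none higher after deletion (median -0.15). Atf4 fell from 200 ± 23.4 to 147 ± 16.5 CPM (-0.43 ± 0.0962, adjusted p = 0.00667), and the others were Ddit4, an inhibitor of mTOR signalling (-0.81 ± 0.218, adjusted p = 0.0162), Mthfd2 (-0.56 ± 0.16, adjusted p = 0.0205) and Asns (-0.46 ± 0.13, adjusted p = 0.0201). In the Myc network 4 of 10 were called lower and 1 higher (median -0.25). Myc, named after its values were seen as the 1 gene called higher, rose from 185 ± 14 to 265 ± 31.1 CPM (0.54 ± 0.0915, adjusted p = 0.00159). Mxd3, for a Max partner that opposes Myc, had a log2 fold change of -1.03 ± 0.231 (adjusted p = 0.00649), and Mxd1, Mxi1 and Mnt were at -0.75, -0.71 and -0.70.

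Under 4-OHT in Fl/+ cultures, where 7.34% of all genes were called higher and 6.45% lower without the mouse block, the same lists were counted. Other initiation genes had 1 called higher, Larp1, a regulator of mRNAs for ribosomal proteins (0.37 ± 0.0968, adjusted p = 0.0267), and 1 lower, Pdcd4, an inhibitor of eIF4A (-0.43 ± 0.122, adjusted p = 0.0392). Elongation factors had 1 higher, Eef1a2, at 2.02 ± 0.46 against 0.257 ± 0.166 CPM (adjusted p = 0.000928), and 1 lower, Eef1d. Of the Atf4 list Trib3 was higher (1.49 ± 0.362, adjusted p = 0.0205), and Phgdh (-0.81 ± 0.139, adjusted p = 0.00383) and Slc7a11 (-1.62 ± 0.329, adjusted p = 0.00923) were lower. Max and Mlx were called lower in the Myc network, and none of the mitochondrial factors was called. In Fl/Fl 4-OHT against untreated Fl/+, with 15.7% of all genes higher and 15.1% lower, the counts called higher and lower were 2 and 5 for other initiation genes, 2 and 5 for elongation factors, 1 and 0 for mitochondrial factors, 0 and 3 for the Atf4 list and 1 and 5 for the Myc network.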

How the data were processed

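Gene counts of 15 RNA-seq libraries (TruSeq Stranded mRNA, single-end reads of 51 cycles) were used as deposited. The authors demultiplexed with bcl2fastq 1.8.4, aligned reads with STAR 2.5.4b to GRCm38 with Ensembl 92, and counted uniquely mapped reads per gene by strand with featureCounts 1.5.0. Members and lists were chosen with earlier results of these data known. Symbols and exon lengths (all annotated exons of a gene, merged) came from GENCODE M21 (53706 of 53801 IDs matched).

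Each comparison used its own 10 libraries in edgeR 4.0.16 (R 4.3.3): filterByExpr with a minimum count of 10, TMM, glmQLFTest without covariates, Benjamini-Hochberg adjustment over all genes tested. SEs were derived from the fold change and F. CPM used TMM factors over all 15 libraries. Scripts were tested on simulated data. Every library's value was given for Eif4a1 to Eif4a3, Trrap and, in the deletion and the 4-OHT comparison, the up to 4 largest called rises and falls averaging at least 1 CPM. Other lists name at most 4 called genes, and Myc was added.

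Same-numbered Fl/+ cultures come from 1 mouse, and their deviations from the group means correlated at 0.156 to 0.626 over 15435 genes, against -0.549 to 0.339 between different mice. The mouse was therefore a block in an alternative fit. Other alternatives were DESeq2 1.42.0, other scalings, no filter, sex as a covariate and omitted libraries.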

Additional observations from a re-analysis of the deposited data

Results flagged for a closer look

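Among the 12 genes given by library, each group of 5 was screened for a library standing apart by Dixon's criterion, 36 groups in all, and chance flags about 1 in 20. Eif4a1 was highest in the untreated Fl/+ library of mouse 19, at 210 CPM against 160 to 172 CPM in the other 4. Eif2d was highest in the Fl/+ 4-OHT library of mouse 26, at 70.6 CPM against 55.6 to 59.2 CPM. Eif4ebp1 was highest in the Fl/+ 4-OHT library of mouse 24, at 75.6 CPM against 39 to 49.4 CPM.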

How the results depend on the processing

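After Trrap deletion, the 17 members called lower ranged from 12 to 21 over the other tools, scalings and filters and over leaving out each library in turn, and numbered 6 without the Fl/Fl libraries of mice 29 and 39 and the Fl/+ 4-OHT library of mouse 36, a setting with fewer samples chosen after seeing the data. The 2 called higher became 0 without the low-count filter, 1 with sex as a covariate, 1 without those 3 libraries, 1 without Fl/+ mice 19, 24 and 26 (also chosen after seeing the data), and 0 to 1 when a library was left out. Under 4-OHT, the 2 called higher became 1 with DESeq2's size factors, 1 without the filter, 4 with sex as a covariate, 6 with the replicate block and 1 to 2 when a library was left out. The 1 called lower became 0 by library size alone, 2 with the sex covariate, 4 with the replicate block, 0 without Fl/+ mice 19, 24 and 26, and 0 to 3 when a library was left out. In Fl/Fl 4-OHT against untreated Fl/+, the 2 called higher became 4 by library size alone, 1 without the filter and 2 to 4 when a library was left out, and the 15 called lower ranged from 11 to 16. On counts as deposited, the difference in the Eif4a1 share of Fl/Fl 4-OHT from Fl/+ 4-OHT was -13.7 percentage points in place of -11.8. Where no construction of the setting is named, the cause was not tested.

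The sign changed for Eif3j1 after deletion (0.15 without Fl/+ mice 19, 24 and 26), for Eif4a3 after deletion (-0.07 without the same mice, and -0.03 to 0.04 when a library was left out) and for Eif4a1 under 4-OHT (0.05 without the same mice), the eIF4A changes never having been called there. Over the named genes and settings, 629 values kept sign and side of the threshold and 127 lost their call. A difference of Trrap deletion pairs no mice, so the block applies to the 4-OHT comparison. Depth limits Eif4ebp3, Eif4e1b and Eif4e3, all under 1.1 CPM in every library.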
